A study of Mus musculus with 6 samples.

Results

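Regulators of G protein signalling (RGS proteins, encoded by the Rgs genes) were examined in ribosome-bound messenger RNA of S100a10-expressing cells of the mouse cortex, after fluoxetine or vehicle. Members were all probe sets that the platform annotation assigned to Rgs2, Rgs4, Rgs6, Rgs7, Rgs8, Rgs9, Rgs10, Rgs14, Rgs16 or Rgs17 alone. These were 10 genes and 21 probe sets, of 45037 probe sets in the table without array controls. The mice carried an S100a10 bacTRAP transgene (line ES691), in which cells that use the S100a10 control region make a tagged ribosomal protein, so that their ribosomes and the RNA on them can be purified (translating ribosome affinity purification, TRAP). The line came from FVB and had been crossed to C57BL/6 over several generations. One group of 3 samples drank fluoxetine, a serotonin reuptake inhibitor, at 0.167 mg/ml in 1% saccharine, and the other group of 3 samples drank 1% saccharine alone, both over 15 to 18 days. The sources used here give neither the age and sex of the mice nor the number of animals behind a sample, and p-values therefore measure the spread between samples.

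An RGS protein speeds up the hydrolysis of GTP by the alpha subunit of a heterotrimeric G protein and so shortens the signal that a G protein-coupled receptor sends. Many serotonin receptors signal through the Gi/o or Gq classes of alpha subunit, on which most RGS proteins act. The family falls into small proteins that hold little beyond the RGS domain (Rgs2, Rgs4, Rgs8 and Rgs16), larger ones that bind the beta subunit Gnb5 (Rgs6, Rgs7 and Rgs9), Rgs10 and Rgs14, and Rgs17, which belongs to a group known for acting on Gz.

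No Rgs gene differed between fluoxetine and vehicle beyond the spread between arrays. Of the 21 probe sets, 16 passed the filter on low values (a geometric mean intensity of at least 50 over the 6 arrays), with at least 1 for each of the 10 genes. The other 5 had geometric means of 4.13 to 35.8. None of the 16 had a Benjamini-Hochberg adjusted p under 0.05 in limma's moderated test, where 0% of all 22326 tested probe sets did, and the smallest adjusted p among the members was 0.999. At an unadjusted p under 0.05 limma again called 0 of the 16, where 2.52% of all tested probe sets were called. The groups overlapped for all 16, while 8.05% of tested probe sets had groups that did not (5.23% lower and 2.83% higher with fluoxetine). Each gene is represented below by its brightest probe set unless another is named. On that basis 6 genes were lower and 4 higher with fluoxetine, against 66.3% of all tested probe sets lower. The median difference was −0.050 on the log2 scale for the 10 genes and −0.058 for all tested probe sets. The count moved with single arrays, with 9 of 10 lower without fluoxetine 1 and 3 of 10 lower without fluoxetine 2. Of all tested probe sets, 69.3% and 57.6% were lower with these arrays left out. The count was 8 without vehicle 1 (68.1% of all tested) and 5 without vehicle 2 (57.1%). It also moved with scaling, to 5 lower after quantile normalization and 4 after a shift to a common median. The share of all tested probe sets that were lower fell with these settings, to 50.1% and 49.2%.

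**Figure D1:**
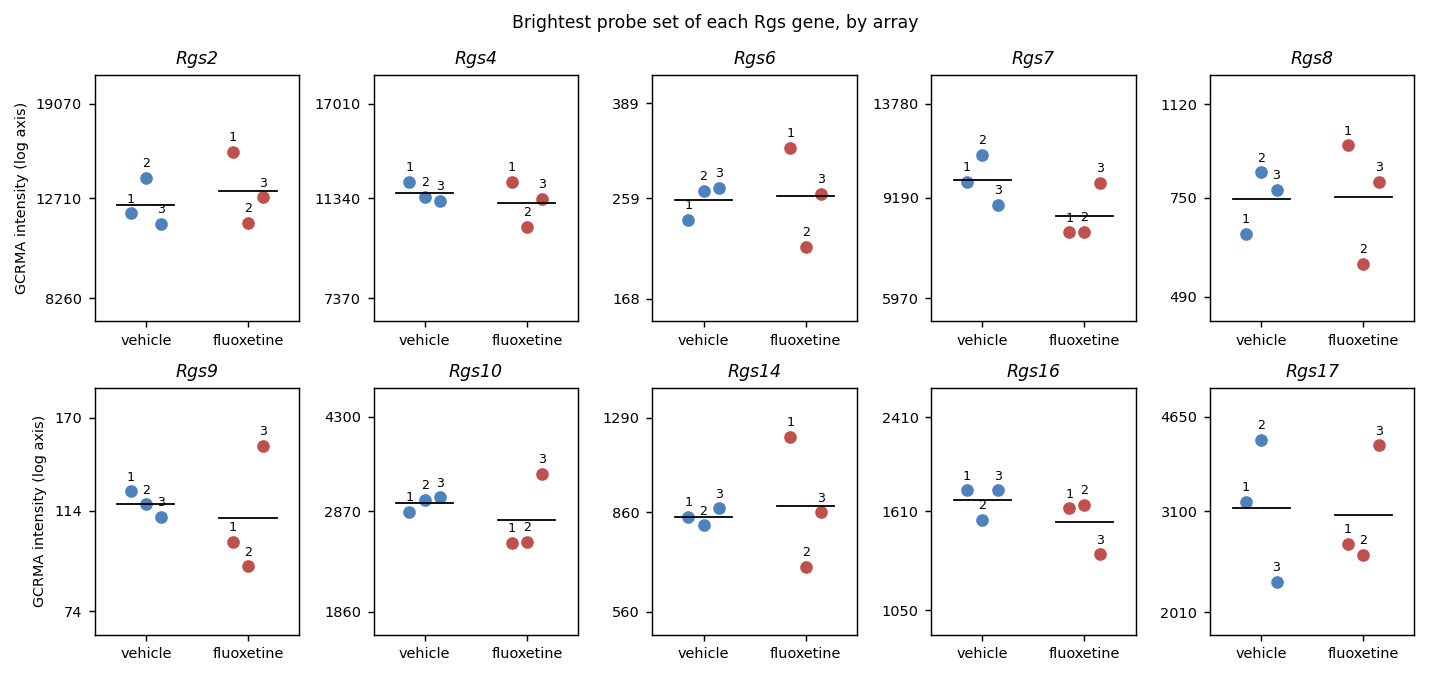
GCRMA intensity (log axis, a separate range for each panel) of the brightest probe set of each of the 10 genes, with 1 point per array numbered by replicate and a line at the geometric mean of the 3 arrays of a group. The groups overlap in every panel, and the SD of the log2 values is larger with fluoxetine in 9 of the 10.

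As bulk RNA was measured, fewer cells of a type and less RNA per cell cannot be told apart for any of these values. Markers of the labelled cell type were read first. The series holds no array of unpurified cortex RNA, so these values cannot show how far TRAP enriched that cell type. S100a10, the driver, read 32391 to 36869 with fluoxetine and 34487 to 38076 with vehicle. The layer 5 neuron genes Fezf2 and Bcl11b, both transcription factors, were above the filter on every array, as were all 7 annotated excitatory neuron markers. All 10 interneuron and all 11 astrocyte markers also passed. Where the mean of each group had to be at least 50, 10 of the 11 astrocyte markers passed. Intensities of different probe sets depend on their probes and are not compared with each other.

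Rgs2 encodes a small RGS protein with a preference for Gq, and its gene is known to be switched on quickly by neuronal activity. Its brightest probe set read 15467, 11406 and 12738 on fluoxetine arrays 1 to 3 and 11892, 13865 and 11379 on vehicle arrays 1 to 3. The vehicle arrays lay within the range of the fluoxetine arrays except vehicle 3, which was just below it. The difference was 0.09 ± 0.15 in log2 (SE, n = 3 each; limma adjusted p = 0.999) and −0.033 without fluoxetine 1. The other tested probe sets of Rgs2 pointed in opposite directions, at 0.21 ± 0.21 and −0.14 ± 0.18. The first of these, which can match several transcripts, differed by 0.44 without fluoxetine 2, with an unadjusted p of 0.018 and an adjusted p of 0.908 in limma. In that setting 1198 of 22326 tested probe sets had an unadjusted limma p under 0.05, among them 1 Rgs probe set. Immediate early genes, the class of quickly induced genes, were lower in 25 of 28 measured cases, against 66.3% of all tested probe sets. Their median difference was −0.34, although none passed. Their median deviation from the mean of the 6 arrays was −0.30 on fluoxetine 1, where Rgs2 stood 0.28 above its own mean.

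Rgs4 acts on Gi/o and Gq and is abundant in cortical neurons. It measured 12142, 10019 and 11281 with fluoxetine and 12161, 11383 and 11210 with vehicle. The arrays of both groups spanned nearly the same values, only fluoxetine 2 lying lower. The difference of −0.06 ± 0.12 (SE) had a 95% interval of −0.34 to 0.22, a fold of 0.791 to 1.17. Its other tested probe sets differed by 0.0050 ± 0.12 and 0.031 ± 0.14. The sign of the brightest turned after the median shift (0.0013) and without fluoxetine 2 (0.016). Rgs4 was therefore among the most narrowly bounded members.

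Upstream sequences of Rgs2, Rgs4 and Rgs7 are shown as context, the first pair because these genes are known to respond to activity and Rgs7 because it had the smallest p among the members. They are the 250 bases before the transcription start in RefSeq (GRCm38.p6), written 5′ to 3′ on the strand of the gene, which is the minus strand in all 3. Capitals mark TGACG or its reverse complement CGTCA, the core that cyclic AMP response element (CRE) binding proteins recognise.
Rgs2, chr1:144004150-144004399: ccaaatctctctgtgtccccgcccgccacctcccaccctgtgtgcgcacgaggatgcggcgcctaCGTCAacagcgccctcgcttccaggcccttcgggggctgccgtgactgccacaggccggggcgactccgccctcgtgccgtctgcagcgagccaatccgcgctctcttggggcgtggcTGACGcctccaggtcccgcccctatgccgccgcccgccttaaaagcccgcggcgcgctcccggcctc
Rgs4, chr1:169747643-169747892: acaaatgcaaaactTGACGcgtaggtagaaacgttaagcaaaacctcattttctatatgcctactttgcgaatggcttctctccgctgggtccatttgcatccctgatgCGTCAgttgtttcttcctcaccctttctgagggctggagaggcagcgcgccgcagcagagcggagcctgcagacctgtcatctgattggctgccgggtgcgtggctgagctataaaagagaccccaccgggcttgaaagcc
Rgs7, chr1:175492546-175492795: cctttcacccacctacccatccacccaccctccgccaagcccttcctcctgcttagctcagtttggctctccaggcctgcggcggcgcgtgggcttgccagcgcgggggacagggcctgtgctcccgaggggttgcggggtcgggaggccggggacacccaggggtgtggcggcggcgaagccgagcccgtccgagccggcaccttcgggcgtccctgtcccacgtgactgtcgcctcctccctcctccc

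Rgs2 and Rgs4 each hold the core 2 times, at positions −185 and −67 and at −236 and −141 from the start, and Rgs7 does not hold it in this window. Over all RefSeq genes, 17.8% of 32851 upstream windows of 250 bases hold the core on either strand, and 3.9% hold it at least 2 times. Promoters of 9 of the 10 genes matched by symbol, with 11 windows in all, and 3 of these windows (those of Rgs2 and Rgs4 and 1 of the windows of Rgs8) hold the core. The full element TGACGTCA, which contains the core, was in 0 of the 11 and in 1.55% of all windows. These matches describe letters only. The 3 genes differed by 0.09 (Rgs2), −0.06 (Rgs4) and −0.22 (Rgs7) in log2, none past the test.

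Rgs8 and Rgs16 are neighbouring genes on chromosome 1 in the RefSeq table. Rgs8, which acts on Gi/o and is known from Purkinje cells, read 938, 563 and 802 with fluoxetine and 641, 836 and 775 with vehicle. The highest and the lowest of the 6 values were both fluoxetine arrays. The difference was 0.010 ± 0.21 (SE), and its sign turned without fluoxetine 1 (−0.15), fluoxetine 3 (−0.037) or vehicle 1 (−0.099). Rgs16, known for its daily rhythm in the circadian pacemaker, read 1628, 1655 and 1336 with fluoxetine and 1759, 1552 and 1759 with vehicle. Fluoxetine 3 was the lowest, and the groups overlapped through vehicle 2. The difference was −0.14 ± 0.13, negative under all 16 alternatives that kept the gene (−0.20 to −0.039), and −0.03 ± 0.15 for the second probe set. That second one turned positive after quantile normalization (0.018) or the median shift (0.031), and without fluoxetine 2 (0.084) or vehicle 1 (0.023).

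Among the Rgs proteins that pair with Gnb5, Rgs7, which acts on Gi/o in neurons, had the largest difference of the 10 genes. It measured 7927, 7955 and 9799 with fluoxetine and 9854, 11057 and 8934 with vehicle. Fluoxetine 1 and 2 were below every vehicle array, but fluoxetine 3 was above vehicle 3. The difference was −0.22 ± 0.14 (SE), a fold of 0.859, with a 95% interval of −0.55 to 0.11 (limma unadjusted p = 0.164, adjusted p = 0.999). The exact two-sided permutation p was 0.2, where 3 arrays against 3 cannot go below 0.1. The difference was below 0 under all 17 alternatives, from −0.32 to −0.14, and passed in none. By root mean square difference of centred log2 values over the 6 arrays, the tested genes most like Rgs7 were Osbpl6 (0.035), Gfod1 (0.037) and Auh (0.037). These 3 differed by −0.17, −0.19 and −0.16 in log2, and the likeness is one of array profile only.

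Rgs6, known for dampening GABA-B and muscarinic signals, measured 321, 210 and 264 with fluoxetine and 235, 267 and 270 with vehicle. As with Rgs8, the outermost values were both fluoxetine arrays, 1 and 2. The difference was 0.021 ± 0.17 (SE), but −0.13 without fluoxetine 1 and −0.042 without vehicle 1. Rgs9, whose product limits dopamine and opioid signals in the striatum, was dim at 99.5, 89.7 and 151 with fluoxetine and 124, 117 and 111 with vehicle. Its vehicle arrays lay close together, between the low fluoxetine 1 and 2 and the high fluoxetine 3. The difference was −0.09 ± 0.20, and 0.036 with array weights and 0.064 without fluoxetine 2. Its 2 other probe sets, at geometric means of 4.68 and 4.13, were higher on every fluoxetine array than on every vehicle array. They were below the filter and not tested, and 36.4% of the 22711 probe sets below it also had every fluoxetine array above every vehicle array.

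Rgs10 and Rgs14 differ widely in size, and Rgs10 is known from microglia as well as neurons. Rgs10 read 2502, 2511 and 3368 with fluoxetine and 2862, 3011 and 3043 with vehicle. Fluoxetine 3 was the highest array and fluoxetine 1 and 2 the lowest. The difference was −0.10 ± 0.15 (SE), and ran from −0.25 without fluoxetine 3 to −0.0085 with array weights. Of 10 microglia markers, 5 passed the filter and all 5 were higher with fluoxetine (4 without fluoxetine 1, and 3 without fluoxetine 3 or without vehicle 1), none past the test, while Aif1, P2ry12, C1qc, Itgam and Trem2 were below it. Their summed intensity was 1546 to 2226 with fluoxetine and 1403 to 1859 with vehicle, and was highest on fluoxetine 3, as Rgs10 was. The lowest arrays differed. The sum was lowest on vehicle 1 (1403), where Rgs10 stood at −0.0023 from its own mean in log2. Rgs10 was lowest on fluoxetine 1 and 2, where the sums were 1751 and 1546. The part of these markers in the values of Rgs10 was not tested.

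Rgs14, a scaffold known for limiting synaptic plasticity in hippocampal area CA2, read 1186, 679 and 859 with fluoxetine and 842, 812 and 874 with vehicle. The 3 vehicle arrays were almost equal, with fluoxetine 1 well above and fluoxetine 2 well below them. The difference was 0.07 ± 0.20 (SE), or −0.14 without fluoxetine 1 and 0.26 without fluoxetine 2. Of the 4 annotated CA2 markers, 2 were below the filter (Amigo2 and Fgf2). The other 2 differed by −0.021 (Pcp4, opposite in sign in 5 of 17 alternatives) and −0.20 (Cacng5, 0.029 without fluoxetine 2), neither past the test. Their median deviation was 0.048 on fluoxetine 1 and −0.30 on fluoxetine 2. The part of these markers in the values of Rgs14 was not tested. Rgs17, of the group that acts on Gz, measured 2694, 2572 and 4114 with fluoxetine and 3228, 4213 and 2284 with vehicle. Each group held both high and low arrays. The difference was −0.04 ± 0.27, and 0.13 ± 0.24 for the second probe set, whose highest and lowest arrays were also vehicle 2 and vehicle 3.

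**Figure D2:**
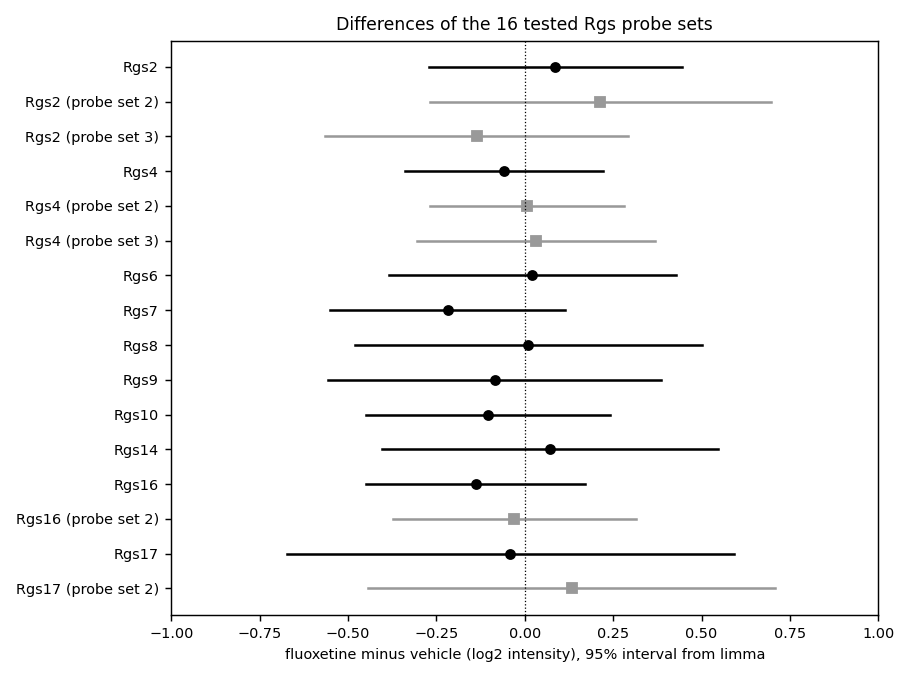
Fluoxetine minus vehicle difference in log2 intensity of the 16 tested probe sets, with 95% intervals from limma that are not adjusted for the number of probe sets. Black circles are the brightest probe set of a gene and grey squares the others; all 16 intervals cross 0 and none reaches −1 or 1.

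The intervals bound what these arrays could hide. None of the 16 reached a change of 1 in log2 (a doubling or halving), and the furthest bound was 0.71, of the second Rgs17 probe set. Smaller changes could have been missed. When 22326 probe sets were simulated with the variances that limma estimated here, it recovered 1.94% of changes of 0.5, 69.4% of changes of 1 and 98.9% of changes of 2. Each run held 200 changed probe sets of these sizes mixed, with independent noise. The adjusted cut depends on how many other probe sets change, so a lone change in an Rgs gene could be recovered less often. The SD of the log2 values was larger among fluoxetine than among vehicle arrays for 9 of the 10 genes, all but Rgs17, where 60.3% of all tested probe sets had the larger SD with fluoxetine. It ran from 0.14 to 0.40 with fluoxetine and from 0.047 to 0.44 with vehicle.

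The 10 genes did not share a single array profile. They are grouped here by the highest array of their brightest probe set, and the grouping was not tested. Rgs2, Rgs6, Rgs8 and Rgs14 were highest on fluoxetine 1, by 0.28 to 0.46 over their own means, where 24.1% of tested probe sets were highest on that array. Rgs6, Rgs8 and Rgs14 were also lowest on fluoxetine 2, a pairing seen in 10.4% of tested probe sets. In all 5 of the 10 genes were lowest on fluoxetine 2, against 28.2% of tested probe sets. Rgs7 and Rgs17 were highest on vehicle 2, and Rgs9 and Rgs10 on fluoxetine 3, and all 4 were below their means on fluoxetine 1 and 2. On vehicle 3 these 4 spread from −0.44 for Rgs17 to 0.086 for Rgs10. Rgs4 and Rgs16 were highest on vehicle 1. Dimmer tested probe sets of these genes were highest elsewhere, on fluoxetine 2 and fluoxetine 1 for Rgs4 and on fluoxetine 3 for Rgs16. The second Rgs2 probe set was highest on fluoxetine 1 and the third on vehicle 2. Markers of other cells also moved on fluoxetine 1 and 2. Striatal markers (7 of 8 annotated above the filter) stood at a median of 0.38 on fluoxetine 1 and −0.21 on fluoxetine 2, with a summed intensity of 9110 to 14118 with fluoxetine and 9985 to 10956 with vehicle. Oligodendrocyte markers (6 of 8) stood at 0.17 and −0.55, with sums of 15788 to 26980 against 22589 to 24884. Astrocyte markers (11 of 11) stood at 0.15 and −0.13, with sums of 65665 to 77720 against 64260 to 72229. Single astrocyte markers moved more, with Gfap at 3.34 (1.07 to 5.37 over the alternatives), Aqp4 at 0.66 and Sox9 at 0.58 in log2. Of the 11, 6 were higher and 5 lower with fluoxetine, none past the test. Where the mean of each group had to be at least 50, 5 were higher and 5 lower. The mean log2 of the 11 was 11.96, 10.81 and 11.51 on fluoxetine 1 to 3 and 10.90 to 11.05 with vehicle. A single marker with a large difference, such as Gfap, can move this mean. Other lists went the other way or were low on both fluoxetine 1 and 2. Vessel wall markers (4 of 8) stood at −0.56 and 0.023, endothelial markers (5 of 7) at −0.13 and 0.092, and nuclear RNAs (6 of 8) at −0.32 and 0.15. Interneuron markers (10 of 10) stood at −0.12 and −0.18. Their part in the Rgs values was not tested.

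**Figure D3:**
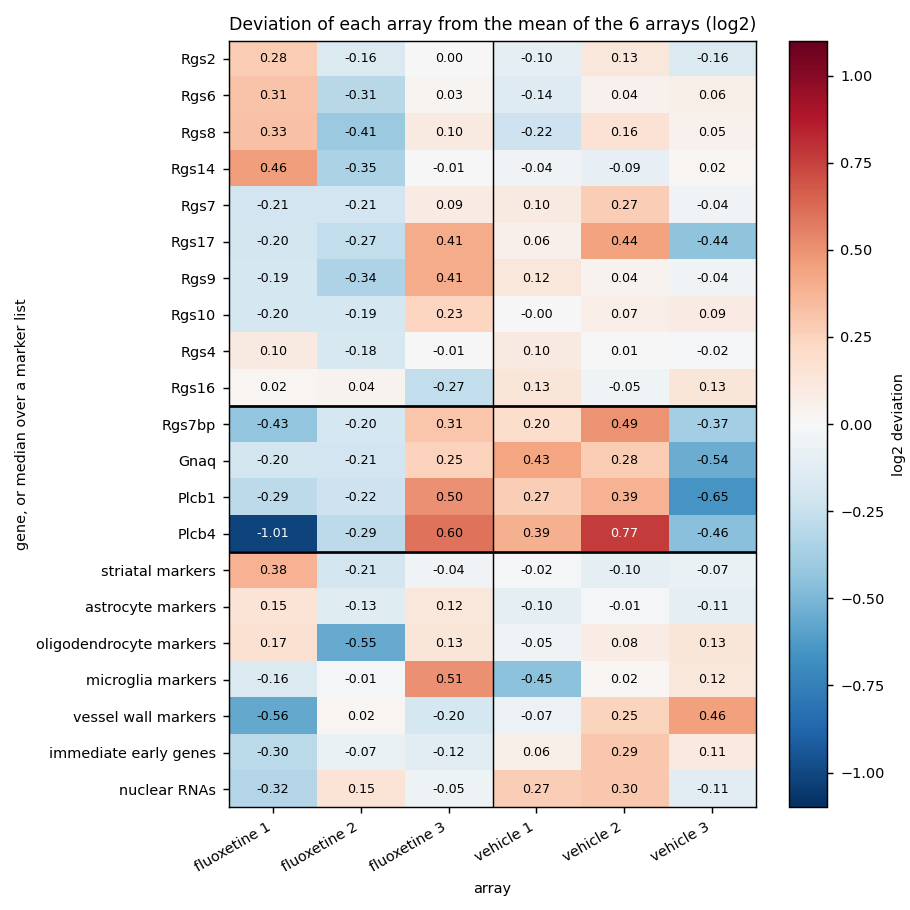
Log2 deviation of each array from the mean of the 6 arrays, for the brightest probe set of the 10 Rgs genes (top block), for 4 genes of Gq signalling and Rgs7 anchoring (middle) and as the median over tested members of marker lists (bottom). Rgs2, Rgs6, Rgs8 and Rgs14 are highest on fluoxetine 1, while Rgs7bp, Gnaq, Plcb1 and Plcb4 are low on fluoxetine 1 and 2 and vehicle 3. Plcb1 and Plcb4 were picked because they had the profile of Rgs7bp, so their likeness to it follows from that choice.

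Of the 5 listed partners of the Rgs6, Rgs7 and Rgs9 proteins, 3 passed the filter. All 3 were lower (2 without fluoxetine 1 or without vehicle 2), against 66.3% of all tested probe sets, none past the test. Rgs7bp, which anchors these complexes at the membrane, read 7335, 8637 and 12233 with fluoxetine and 11340, 13936 and 7647 with vehicle. The low arrays were fluoxetine 1 and 2 and vehicle 3. The difference was −0.21 ± 0.27 (SE), and the dimmest probe set of Rgs7bp ran from 302 on fluoxetine 1 and 582 on vehicle 3 to 2428 on fluoxetine 3. Gnb5 itself measured 4659, 4790 and 4377 against 5487, 4692 and 5455, a difference of −0.17 ± 0.12. Its dimmer probe set differed by −0.039 ± 0.14. Gpr158, a receptor that recruits Rgs7 to the membrane, read 47.7, 63.7 and 118 with fluoxetine and 94.2, 116 and 44.9 with vehicle. The array order of Rgs7bp and Gpr158 was close to that of Rgs17, low on fluoxetine 1 and 2 and vehicle 3.

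The alpha subunits on which RGS proteins act did not pass either. Over all tested probe sets 66.3% were lower, or 50.1% after quantile normalization, 49.2% after the median shift and 57.6% without fluoxetine 2. Of the 5 measured Gi/o and Gz subunits 4 were lower, 3 after quantile normalization or the median shift and 2 without fluoxetine 2, with a median of −0.09: Gnai3 differed by −0.16 ± 0.12 (SE), Gnaz by −0.10 ± 0.16 and Gnao1 by −0.09 ± 0.19. Without fluoxetine 2 the median was 0.027, Gnaz 0.040 and Gnao1 0.13. Of the Gq class, Gnaq read 5782, 5743 and 7922 with fluoxetine and 8979, 8097 and 4572 with vehicle. Its difference was −0.11 ± 0.27 (0.075 without vehicle 1), its other tested probe sets ran from −0.31 to 0.22, and Gna11 differed by −0.07 ± 0.16. The dimmer probe set of Gna11 differed by 0.059 ± 0.24. The phospholipases that Gq activates, Plcb1 and Plcb4, were picked after their values were seen, because they had the profile of Rgs7bp. Plcb4 read 1058, 1753 and 3239 against 2809, 3639 and 1553, and Plcb1 9632, 10059 and 16629 against 14207, 15357 and 7489. For both, vehicle 3 sided with fluoxetine 1 and 2. Of the 4 Gs and G12/13 subunits 3 were lower, with a median of −0.04. Quantile normalization turned that median to 0.017 and the median shift to 0.020 (Gna12 −0.07 ± 0.12, Gnas −0.06 ± 0.13, Gna13 0.018 ± 0.16). A dimmer tested probe set of Gnas differed by 0.20 ± 0.13, and those of Gna13 ran from −0.094 to 0.13.

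Genes around the RGS cycle were not called either. Of the 9 other genes with an RGS domain or an RGS-binding role above the filter, 9 were lower. The share over all tested probe sets was 66.3%. The count fell to 7 after quantile normalization (50.1% of all tested) and 7 without fluoxetine 2 (57.6%), and the median was −0.14. Rgs3 read 494, 462 and 455 with fluoxetine and 588, 610 and 529 with vehicle. Its groups did not overlap, and the difference was −0.29 ± 0.11 (SE; limma unadjusted p = 0.036, adjusted p = 0.999). Axin2, a scaffold of Wnt signalling with an RGS-like domain, differed by −0.19 ± 0.11 and Rgs5, a marker of vessel wall cells, by −0.22 ± 0.14. Of 11 beta and gamma subunits 6 were lower, with Gng4 at −0.26 ± 0.13, Gng2 at −0.21 ± 0.12 and Gng7 at −0.21 ± 0.14. Dimmer tested probe sets differed by −0.20 ± 0.18 and −0.065 ± 0.11 for Gng4 and by −0.010 ± 0.16 and 0.014 ± 0.22 for Gng2. The 5 remaining subunits were higher, among them Gng11 at 0.23 ± 0.16. The dimmer probe set of Gng12 differed by 0.45 ± 0.14 (limma unadjusted p = 0.014, adjusted p = 0.999) and the brighter by 0.011 ± 0.12.

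Effectors of Gi/o and Gq held the largest differences on the pathway. Kcnj9, a subunit of the potassium channels that Gi/o opens, read 1870, 1983 and 1451 with fluoxetine and 2506, 2606 and 2877 with vehicle. Every fluoxetine array was below every vehicle array, at −0.60 ± 0.15 (SE; limma unadjusted p = 0.0048, adjusted p = 0.999). Adcy8, a calcium-stimulated adenylyl cyclase, differed by −0.47 ± 0.15 and the phospholipase Plcb2 by 0.23 ± 0.12. Of 12 measured effectors 8 were lower, 6 after quantile normalization, and none passed. Among 10 measured modulators of the G protein cycle 9 were lower, and 6 after quantile normalization or the median shift, with the receptor kinase Grk3 at −0.41 ± 0.25 (−0.0029 ± 0.10 and −0.17 ± 0.22 for its other tested probe sets) and the exchange factors Ric8a and Ric8b at −0.17 ± 0.11 and −0.20 ± 0.14. Ric8a was 0.059 higher where probe sets that can match several transcripts were left out.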

How the data were processed

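Per the labels' protocols, RNA was purified by TRAP, 15 ng per sample was amplified in 2 cycles and hybridised to single-colour arrays. The deposited values are GCRMA intensity, per the submitters' processing notes, with 1 column per array; version, genome build and scanner files were not used or not given in the sources used here. The linear scale was read from the values (1.74 to 99076). GCRMA is meant to make array distributions alike and pulls low values to a floor. The deposited arrays still differed in scale, with upper quartiles of 498 (fluoxetine 2) to 574 (vehicle 2). Medians of the tested probe sets ran from 8.99 (fluoxetine 2) to 9.20 (vehicle 2) in log2. Of 45101 probe sets, 64 controls were left out; 34945 had 1 symbol, 932 several and 9160 none. Pairs of arrays correlated at 0.980 to 0.992 across tested probe sets.

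Values were taken to log2 without an offset. Probe sets with a geometric mean of at least 50 (22326, 49.6%) were tested together with limma 3.58.1 (R 4.3.3). The contrast was fluoxetine minus vehicle, fitted by lmFit and moderated by eBayes, two-sided and without the replicate number. P-values were adjusted by Benjamini-Hochberg over every tested probe set, with a threshold of 0.05. The number of arrays limits the precision. The test was first run on simulated data, 10 runs with 200 changed probe sets each. The members, pathway lists and markers were chosen with earlier results of these data known. Named genes were all members, up to 3 per pathway or marker list by smallest p, and the 3 genes nearest to the member with the smallest p. Others were picked after their values were seen: Plcb1, Plcb4, Gng11, Gng12, Fezf2 and Bcl11b, and the markers named as below the filter. Alternatives covered the filter, offset, scaling, replicate block, weights, variance prior, choice of probe sets and each array left out.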

Additional observations from a re-analysis of the deposited data

How the results depend on the processing

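No Rgs probe set passed limma's threshold under any of the 17 alternatives, with a smallest member adjusted p of 0.742 (no filter). The count of the 10 genes lower with fluoxetine was 6 as reported and ran from 3 to 9 when single arrays were left out. The share of all tested probe sets that were lower then ran from 57.1% to 69.3%. With the replicate block 0 Rgs probe sets passed, 6 genes were lower, and the count of all tested probe sets at an unadjusted p under 0.05 went from 563 to 350. Replicate numbers are only shared numbers: same-numbered deviations correlated at −0.25, −0.027 and −0.50. By their brightest probe sets, Rgs7, Rgs10 and Rgs16 kept their sign under every alternative that held them. However, Rgs10 stood at only −0.0085 with array weights, and the second Rgs16 probe set turned positive under several, up to 0.084 without fluoxetine 2. Signs turned for Rgs17 (quantile normalization 0.038, median shift 0.019, array weights 0.055, mean of its probe sets 0.046, without fluoxetine 1 0.049, without fluoxetine 2 0.083, without vehicle 2 0.17), Rgs4 (median shift 0.0013, without fluoxetine 2 0.016) and Rgs9 (array weights 0.036, without fluoxetine 2 0.064). Leaving out arrays also turned Rgs2 (−0.033 without fluoxetine 1), Rgs14 (−0.14 without fluoxetine 1), Rgs8 (−0.15, −0.037 and −0.099 without fluoxetine 1, fluoxetine 3 and vehicle 1) and Rgs6 (−0.13 and −0.042 without fluoxetine 1 and vehicle 1). With single arrays left out, the differences ran from −0.033 to 0.19 for Rgs2, −0.12 to 0.016 for Rgs4, −0.27 to 0.17 for Rgs17, −0.14 to 0.26 for Rgs14, −0.15 to 0.22 for Rgs8, −0.13 to 0.18 for Rgs6, −0.31 to 0.064 for Rgs9, −0.32 to −0.14 for Rgs7, −0.25 to −0.031 for Rgs10 and −0.20 to −0.039 for Rgs16. The cause was not tested. Without probe sets that can match several transcripts, Rgs14 and Rgs16 had none left. The 5 dim probe sets were below the filter and not tested.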
